A study of Mus musculus with 8 samples.

Results

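F-box proteins are the substrate receptors of cullin 1 ubiquitin ligases, and their mRNAs were examined in sciatic nerves of 7-day-old (P7) *Nae1* cKO and WT mice. The genes were chosen by symbol alone, as *Fbxl*, *Fbxo* or *Fbxw* followed by a number, and no measured value enters the rule, although the family was picked with earlier results of these data known. This rule gave 79 of the 53090 genes in the deposited tables, with 18 *Fbxl*, 37 *Fbxo* and 24 *Fbxw* genes. Total RNA of 4 *Nae1* cKO nerves (K2, L1, L5 and L8) and 4 WT nerves (K1, L3, L4 and L9) was sequenced from stranded libraries after ribosomal RNA was depleted. The *Nae1* cKO mice were Cre-positive and Nae1 f/f, so that Cre removes exon 4 of *Nae1* in Schwann cells, and other cells of the nerve keep the gene. The study took Cre-negative littermates that were Nae1 f/+ or Nae1 f/f as controls, and which of these genotypes each WT nerve had is not given in the labels. The labels do not say that each nerve came from a separate animal, so p-values measure the spread between these samples, which may be technical in part.

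In a cullin 1 ligase, the F-box motif docks on SKP1, and a second domain holds the substrate. That domain is a leucine-rich repeat in FBXL proteins, a WD40 repeat in FBXW proteins and some other or unnamed domain in FBXO proteins. The ligase is switched on when NEDD8 is joined to the cullin. NAE1, with UBA3, forms the enzyme that activates NEDD8. Exchange of F-box proteins on the cullin occurs while it is free of NEDD8. Several F-box proteins are known for turning over cyclins, CDK inhibitors and JUN, and others act in iron sensing and muscle wasting.

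*Nae1* had 57.1, 57.2, 48.9 and 43.8 CPM (counts scaled to 1000000 per library after TMM scaling) in *Nae1* cKO nerves, against 89.8, 81.3, 77.7 and 82.7 CPM in WT nerves. Here and below, values follow the nerve order K2, L1, L5, L8 for *Nae1* cKO and K1, L3, L4, L9 for WT. All *Nae1* cKO nerves lay below all WT nerves. This count also holds exons other than exon 4 and RNA of other cells. Expected counts came to 12962798 to 13855366 per *Nae1* cKO nerve and 13508752 to 14766770 per WT nerve. Of 6 Schwann lineage markers all were detected, with summed CPM of 2275 to 2631 in *Nae1* cKO and 2754 to 2978 in WT nerves. Nerves stood apart in 2 ways. K2 had rank correlations (Spearman) of 0.973 to 0.978 with the other *Nae1* cKO nerves, which correlated at 0.989 to 0.992 with each other. The 10 skeletal muscle markers summed to 64.3 to 178 CPM in *Nae1* cKO nerves and to 129.98 to 2115 CPM in WT nerves, with K1 (1292 CPM) and L4 (2115 CPM) highest. In whole nerve, fewer cells of a type and less RNA per cell cannot be told apart.

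Promoters of the F-box genes that passed the test given below were searched for 8 motifs, and 2 promoters are shown, chosen after the matches were seen, for motifs tied to cell division and to myelination. RefSeq promoters of GRCm38.p6 (250 bases before to 50 after the start) matched 59 of the 79 genes, and 9 of the 11 genes whose mRNA passed the test. The *Fbxo5* window (chr10:5805441-5805585, minus strand, 120 bases before to 25 after the start) has capitals at CCAAT on the other strand, read as ATTGG and known as the site of NF-Y, and at the cell cycle homology region TTTGAA on the other strand, read as TTCAAA. The *Fbxo44* window (chr4:148160070-148160274, minus strand, 180 bases before to 25 after the start) has its capitals at the letters GTGGGCG. These form the core of sites known for EGR factors, among them EGR2, which drives the myelin programme. Another *Fbxo44* promoter (window from position 148158774), not shown, matched only CCAAT among the 8 motifs.
Fbxo5: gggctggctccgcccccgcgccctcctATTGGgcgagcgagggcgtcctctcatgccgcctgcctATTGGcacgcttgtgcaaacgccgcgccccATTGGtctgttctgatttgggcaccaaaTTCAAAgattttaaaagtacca
Fbxo44: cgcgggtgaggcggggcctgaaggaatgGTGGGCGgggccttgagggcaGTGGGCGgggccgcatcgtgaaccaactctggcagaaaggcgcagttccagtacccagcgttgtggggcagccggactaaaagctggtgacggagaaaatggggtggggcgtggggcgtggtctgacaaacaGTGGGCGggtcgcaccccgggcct

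Both strands of 32851 promoters of equal length were searched for each motif. At least 3 CCAAT matches were in 3.37% of them, TTTGAA in 17.9%, and both in 0.545%. At least 3 GTGGGCG matches were in 0.146%, and 1 or more in 7.97%. Each GTGGGCG match of *Fbxo44* overlaps a GC box (GGGCGG), which 35.7% of promoters hold. Of the 9 genes with a promoter, CCAAT was found in 5 (37.4% of all promoters), the antioxidant response element TGACNNNGC in 3 (12.4%), the GC box in 7, and the cell cycle homology region, the EGR core, the E-box CACGTG (7.15%) and the sterol response element TCACNCCAC (1.24%) in 1 each. The E2F site TTTNNCGC (5.17% of all promoters) was found in 0 of the 9. These 9 genes had 14 promoters, and a gene was counted if any of its promoters matched. The percentages are per single promoter, so they cannot be set directly against the gene counts. Such matches are letters in a window and do not show that a factor binds there.

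The levels of F-box mRNAs spanned a wide range in P7 nerve. Of the 79 genes, 55 passed the filter on low counts, and their mean level over 8 nerves ran from 0.236 to 47.2 TPM (a level per transcript length, scaled to 1000000 per library), with a median of 5.32 TPM. Over 10 TPM lay 16 of the 55, and under 1 TPM lay 7. Among the 5 highest were *Fbxo7*, whose human gene is mutated in a parkinsonian syndrome, at 47.2 TPM, *Fbxl5*, the iron-sensing receptor for IRP2, at 39.1 TPM, *Fbxo18*, a DNA helicase with an F-box, at 31.7 TPM, and *Fbxo25* at 30.3 TPM. The ranges of these over 8 nerves overlapped (plot of TPM by nerve).

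**Figure D1:**
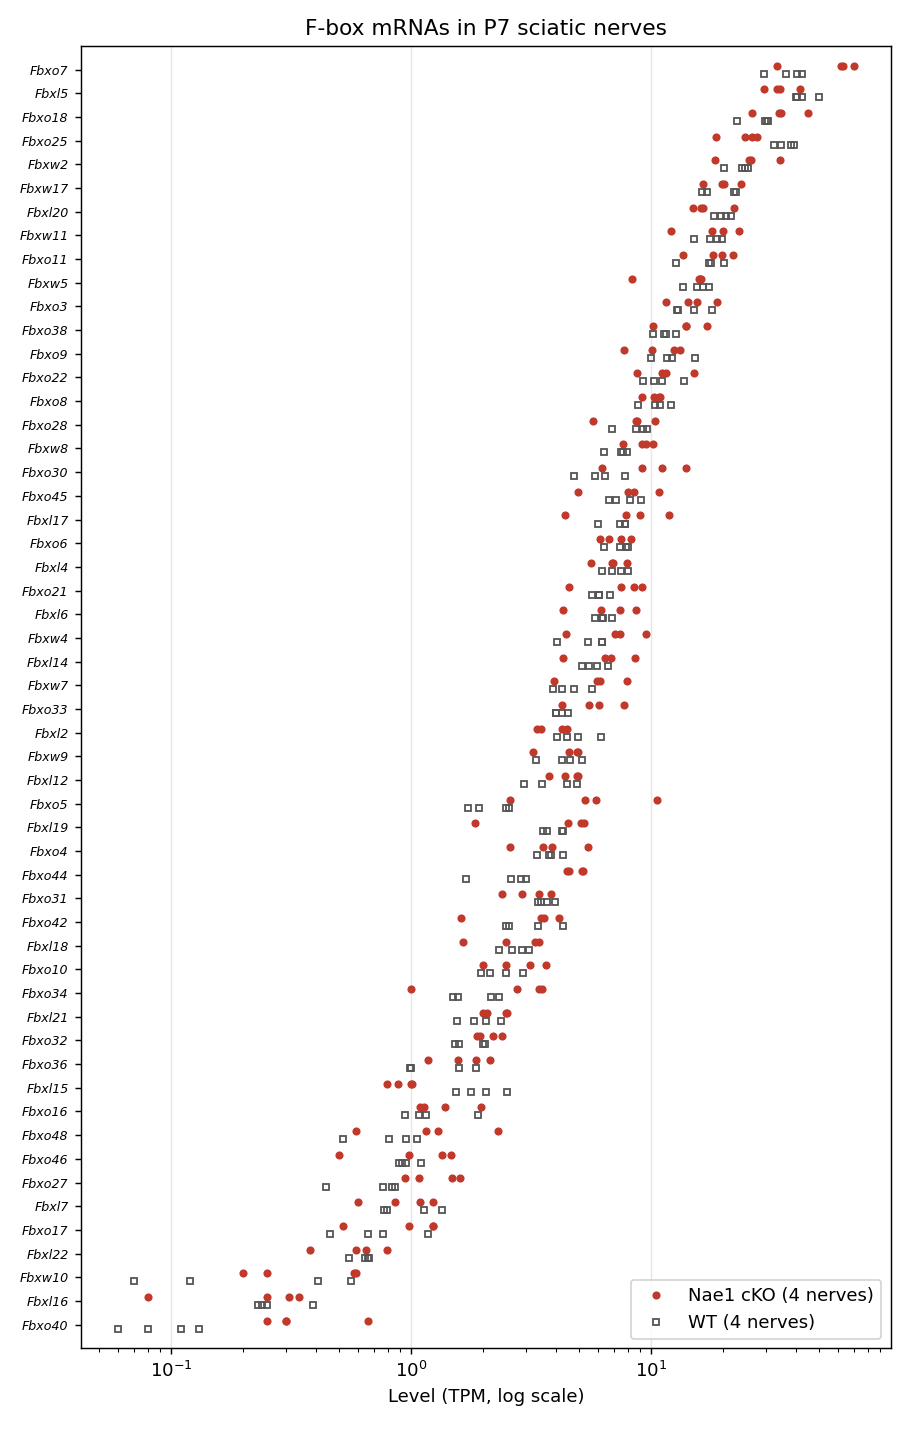
Levels of F-box genes that passed the filter (1 gene is left out), in TPM on a log axis, with a filled circle for each of 4 *Nae1* cKO nerves above an open square for each of 4 WT nerves. The genes run from 0.236 TPM for *Fbxo40* to 47.2 TPM for *Fbxo7*, and all circles of *Fbxo25* (18.6 to 27.6 TPM) lie left of its squares (32.6 to 39.4 TPM).

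The other 24 genes were not tested. Of these, 11 were listed at 0 in all nerves, namely *Fbxw13* to *Fbxw16*, *Fbxw19* to *Fbxw23*, *Fbxw27* and *Fbxw28*. The other 13 had 1 to 74 counts over all 8 nerves. They include *Fbxo2*, a receptor for glycoproteins in neurons, and *Fbxo43*, the germ cell relative of *Fbxo5*. A run of 15 *Fbxw* genes lies between positions 109139447 and 109790670 of chromosome 9 (GRCm38), and it had 15 counts in all over 8 nerves, so this cluster was at or near the detection floor at this depth.

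Most F-box mRNAs did not pass the test between the genotypes. At an adjusted p under 0.05, 6 of the 55 were higher and 5 lower in *Nae1* cKO nerves, which is 20.0% beside 26.4% of all 17090 genes tested (14.1% higher and 12.3% lower). A change over 2-fold was seen in 2 of the 55, *Fbxo5* and *Fbxl15*, beside 6.75% of all genes. The groups did not overlap for 14 of the 55 (25.5%), beside 28.6% of all genes. The median log2 fold change of the 55 was −0.05 and that of all genes 0.0066. By subfamily, 0 of 16 *Fbxl* genes were higher and 3 lower, 6 of 30 *Fbxo* genes were higher and 2 lower, and 0 of 9 *Fbxw* genes passed. At an unadjusted p under 0.05 (edgeR), beside 37.3% of all genes, 0 *Fbxl* genes were higher and 5 lower. At that threshold 6 *Fbxo* genes were higher and 4 lower, and 0 *Fbxw* genes were higher and 2 lower. After adjustment, DESeq2 called 11 of the 55 genes, beside 27.9% of all genes in that fit. These were 0 *Fbxl* genes higher and 3 lower, 5 *Fbxo* genes higher and 2 lower, and 0 *Fbxw* genes higher and 1 lower (*Fbxw5*). The difference between subfamilies was not tested. Without K2, 6 were higher and 8 lower, beside 30.1% of all genes in that fit. Without the muscle-rich WT nerves K1 and L4, 2 were higher (*Fbxo5*, *Fbxo7*) and 1 lower (*Fbxo25*), beside 13.5% of all genes in that fit. On log2(TPM + 1), 3 were higher (*Fbxo5*, *Fbxo40*, *Fbxo44*) and 1 lower (*Fbxl15*), beside 10.1% of all genes, of whose calls 75.4% were higher. With library totals 8 were higher and 3 lower, beside 30.0% of all genes, of whose calls 75.5% were higher, and the median log2 fold change of all genes moved to 0.16.

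**Figure D2:**
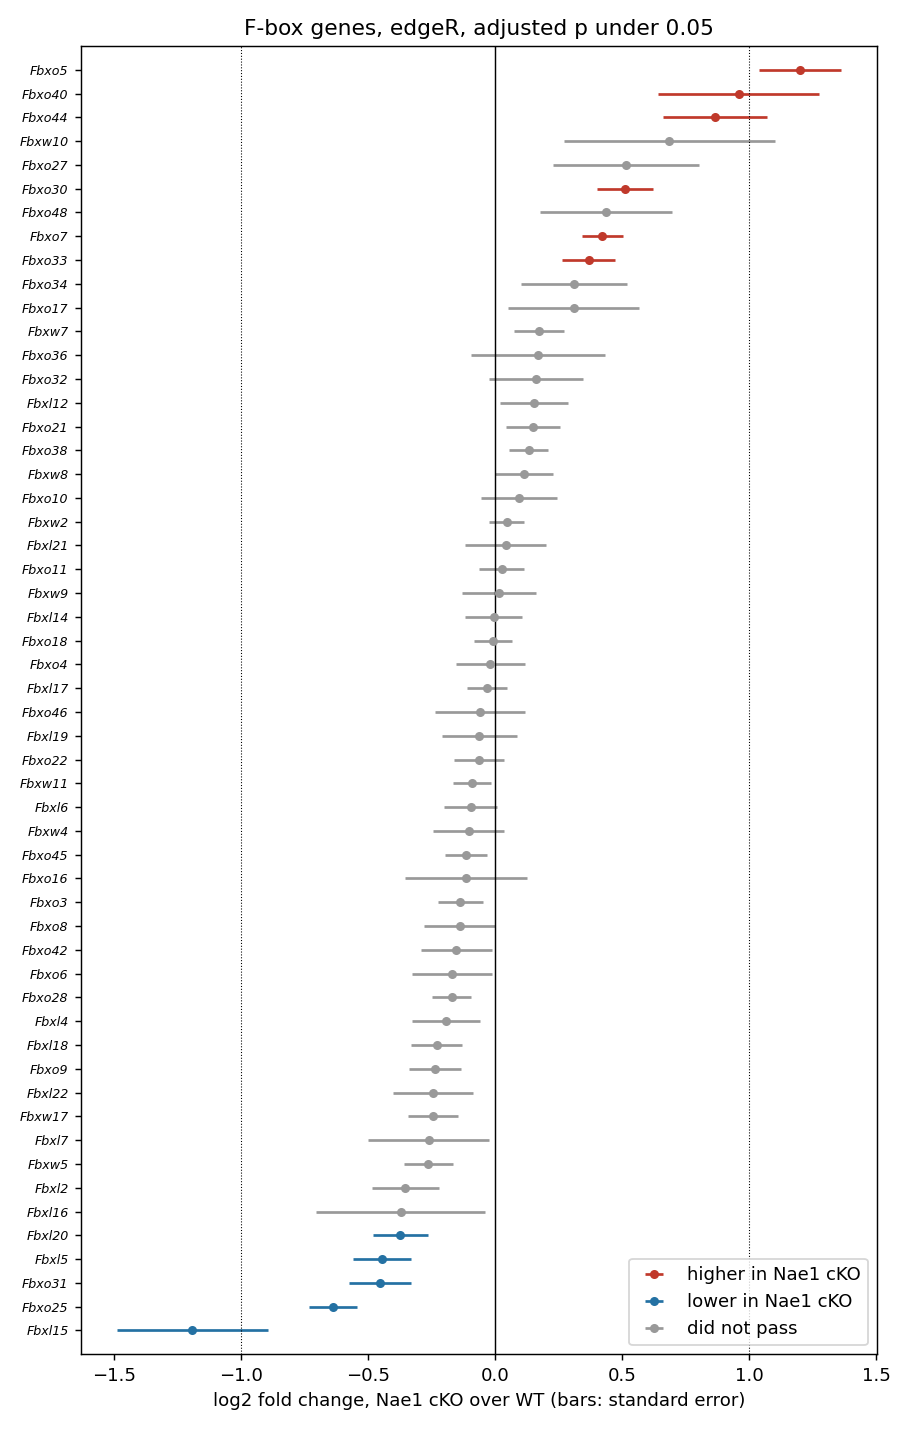
Log2 fold change, *Nae1* cKO over WT, of the tested F-box genes (1 that did not pass is left out) with standard errors from edgeR, red for 6 higher, blue for 5 lower and grey for those that did not pass; dotted lines mark 2-fold. *Fbxo5* (1.20) and *Fbxl15* (−1.19) stand at the ends, and the grey points run from −0.37 to 0.69.

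The cell cycle group gave the F-box gene with the smallest adjusted p. *Fbxo5* (ENSMUSG00000019773.7; chr10:5799160-5805600, minus strand), which encodes EMI1, an inhibitor of the anaphase-promoting complex in S and G2 phase, had 9.48, 14.9, 12.4 and 10.3 CPM in *Nae1* cKO nerves, against 4.75, 5.29, 5.09 and 5.40 CPM in WT nerves. Every *Nae1* cKO nerve lay above every WT nerve, at means of 11.8 ± 2.43 and 5.13 ± 0.286 CPM (SD, n = 4 each). It was higher by a log2 fold change of 1.20 (SE 0.16, adjusted p = 0.000182, edgeR). This was the only 1 of the 11 genes that passed under all 19 alternatives. In TPM the margin was narrow, with 2.59 in K2 against at most 2.55 in a WT nerve. Its promoter is the one shown above with 3 CCAAT matches.

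Of 9 cell cycle and DNA genes tested, 1 was higher and 1 lower, which is 22.2% beside 26.4% of all genes. *Fbxo31*, which acts on cyclin D1 after DNA damage, had 16.9, 12.7, 12.6 and 15.6 CPM in *Nae1* cKO nerves, against 21.4, 19.1, 18.4 and 20.2 CPM in WT nerves. The groups did not overlap, with a log2 fold change of −0.45 (SE 0.12, adjusted p = 0.0153). Without L5 it was −0.39 and did not pass (adjusted p = 0.0568), nor did it without K1 and L4 (adjusted p = 0.0924). With library totals it was −0.30 (adjusted p = 0.0644) and on log2(TPM + 1) −0.18 (adjusted p = 0.735). The gene lies on the minus strand within *Gm20388* on the plus strand (50.8 CPM over all nerves, log2 fold change −0.10), and how the counting used strand is not given, so its value is uncertain.

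*Fbxw7*, the receptor for JUN, MYC, NOTCH1 and cyclin E, had 31.7, 32.5, 32.2 and 29.8 CPM in *Nae1* cKO nerves, against 27.5, 29.1, 23.7 and 31.6 CPM in WT nerves. The groups overlapped, and the log2 fold change of 0.17 (95% interval −0.04 to 0.39, adjusted p = 0.231) did not pass. *Jun* mRNA, whose protein FBXW7 turns over, was at 43.4, 48.1, 49.6 and 48.1 CPM in *Nae1* cKO nerves and at 47.1, 54.8, 47.1 and 56.1 CPM in WT nerves (log2 fold change −0.12, adjusted p = 0.377). *Fbxo18*, the helicase, differed by −0.01 (95% interval −0.17 to 0.16) on the log2 scale, and its sign changed with the scaling and with single nerves left out.

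*Fbxo5* was set beside cell cycle partners and proliferation markers from lists chosen by function (plot by nerve of *Fbxo5* and its partners). *Skp2*, an F-box gene outside the symbol rule whose product marks CDKN1B for turnover, had 15.1, 28.9, 25.02 and 24.5 CPM in *Nae1* cKO nerves, against 13.7, 16.2, 12.98 and 13.4 CPM in WT nerves (log2 fold change 0.73, adjusted p = 0.0082). *Cks1b*, whose product helps SKP2 bind CDKN1B, had 10, 14.7, 14.8 and 14.0 CPM in *Nae1* cKO nerves, against 4.82, 7.24, 5.16 and 6.20 CPM in WT nerves (1.19, adjusted p = 0.0003). *Skp2* overlapped between groups through K2, and *Cks1b* did not overlap.

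*Ccnf*, which encodes cyclin F and was named after its value was seen, had 5.30 CPM in K2 and 14.96 to 18.7 CPM in the other *Nae1* cKO nerves, against 5.26 to 8.91 CPM in WT nerves (0.89, adjusted p = 0.0829). Of 12 proliferation markers, 10 were higher and 0 lower, with summed CPM of 923, 1697, 1558 and 1433 in *Nae1* cKO nerves, against 609, 819, 639 and 744 in WT nerves. K2 was thus the lowest *Nae1* cKO nerve in *Fbxo5*, *Skp2*, *Cks1b*, *Ccnf* and the marker sum. The part of proliferating cells in the *Fbxo5* result was not tested.

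**Figure D3:**
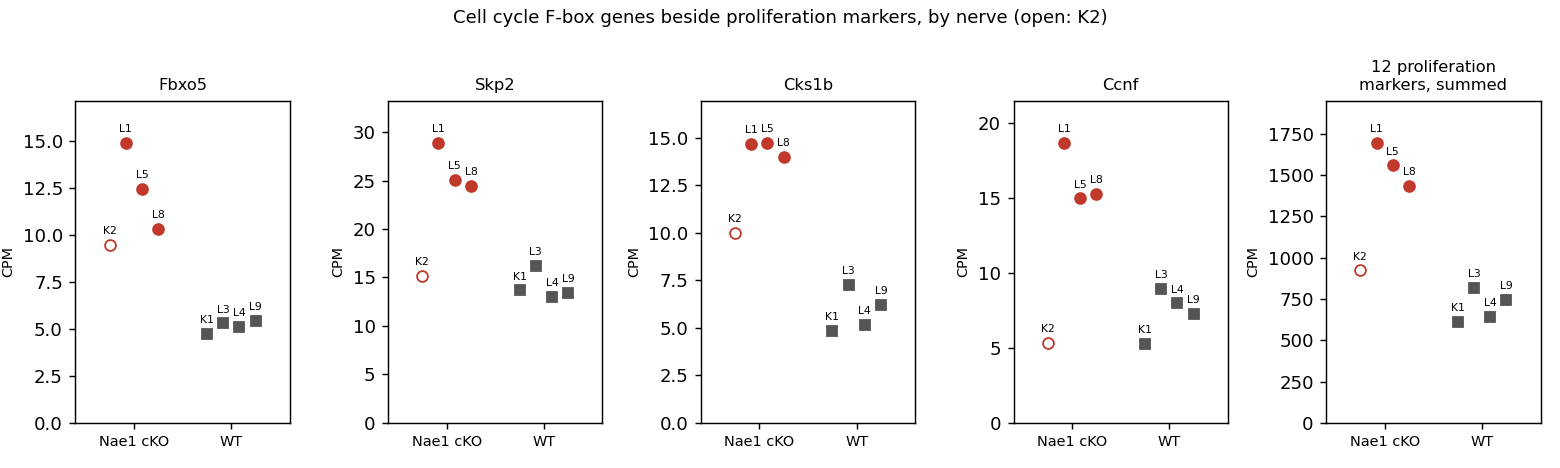
CPM of *Fbxo5*, *Skp2*, *Cks1b* and *Ccnf* and the summed CPM of 12 proliferation markers, 1 point for each of 4 *Nae1* cKO nerves (red circles, K2 open) and 4 WT nerves (grey squares), with nerve names. *Fbxo5* reaches 14.9 CPM in L1, and K2 is the lowest *Nae1* cKO nerve in all 5 panels.

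Of 5 genes known for mitochondria, iron or BACH1, *Fbxo7* was higher and *Fbxl5* lower, which is 40% of a small group beside 26.4% of all genes. *Fbxo7* (ENSMUSG00000001786.14; chr10:86021972-86051873, plus strand), a receptor that also binds the proteasome regulator PI31, had 156, 169, 180 and 187 CPM in *Nae1* cKO nerves, against 117, 129, 135 and 134 CPM in WT nerves. The groups did not overlap. It was higher by 0.42 on the log2 scale (SE 0.08, adjusted p = 0.00199), at means of 173 ± 13.6 and 129 ± 8.18 CPM in *Nae1* cKO and WT nerves (SD, n = 4 each). In TPM, 33.3 in K2 lay within the WT range of 29.5 to 42.5, and the test on TPM did not pass.

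*Fbxl5* had 156, 119, 118 and 113 CPM in *Nae1* cKO nerves, against 191, 159, 152 and 188 CPM in WT nerves. K2 overlapped the lowest WT nerve, with a log2 fold change of −0.44 (SE 0.11, adjusted p = 0.0127). It did not pass without K1 and L4 (−0.46, adjusted p = 0.0596) or on log2(TPM + 1) (−0.31, adjusted p = 0.472). *Ireb2*, which encodes its substrate IRP2 and was named after its value was seen, had a log2 fold change of −0.01 (adjusted p = 0.92). *Fbxo22* and *Fbxl17*, both receptors for BACH1, had −0.06 and −0.03 on the log2 scale and did not pass, while *Bach1* itself was higher by 0.34 (adjusted p = 0.00334; 0.28, adjusted p = 0.0676, without K1 and L4). Their names were likewise taken after their values were seen.

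Of 5 muscle F-box genes and close relatives, *Fbxo30* and *Fbxo40* were higher and *Fbxo25* lower. That is 60% of a small group, beside 26.4% of all genes. The groups were chosen with earlier results known, and this share was not tested. *Fbxo25* (ENSMUSG00000038365.8; chr8:13907803-13940522, plus strand), the nearest relative of the muscle atrophy gene *Fbxo32*, had 63.5, 47.2, 52.6 and 56.5 CPM in *Nae1* cKO nerves, against 87.1, 81.6, 82.5 and 90.5 CPM in WT nerves. The groups stood apart, at means of 54.9 ± 6.87 and 85.4 ± 4.15 CPM (SD, n = 4 each), with a log2 fold change of −0.64 (SE 0.094, adjusted p = 0.000337). Without K1 and L4 it was −0.65 (adjusted p = 0.00729), and on log2(TPM + 1) it was −0.57 and did not pass (adjusted p = 0.0986).

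*Fbxo30*, which encodes the atrophy ligase MUSA1, had 52.5, 57.1, 56.7 and 47.7 CPM in *Nae1* cKO nerves, against 30.8, 36.0, 40.0 and 43.5 CPM in WT nerves. The groups did not overlap (log2 fold change 0.51, SE 0.11, adjusted p = 0.00461), and the gene did not pass without K1 and L4 (adjusted p = 0.0505) or on log2(TPM + 1) (adjusted p = 0.111). *Fbxo40*, the muscle receptor for IRS1, had 18, 16, 15 and 15 counts in *Nae1* cKO nerves, against 6, 6, 8 and 11 counts in WT nerves. Its log2 fold change of 0.96 (SE 0.32, adjusted p = 0.0417) came from few reads, and the gene did not pass when K1, K2, L1, L3, L4, L5 or L8 was left out (0.84 to 1.01, adjusted p of 0.0717 to 0.114), nor without K1 and L4 (adjusted p = 0.273). It also did not pass with DESeq2 (0.96, adjusted p = 0.0991) or with no filter on low counts (0.95, adjusted p = 0.109).

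*Fbxo32*, which encodes atrogin-1, had 30.5, 17.3, 16.7 and 17.1 CPM in *Nae1* cKO nerves, against 18.0, 16.5, 19.0 and 19.5 CPM in WT nerves. K2 alone stood above all others, and the gene did not pass (0.16, adjusted p = 0.571). Of the 10 skeletal muscle markers, 0 were higher and 4 lower, with K1 and L4 highest in their sum and the groups overlapping (178 CPM in K2, 129.98 CPM in L9). The part of muscle RNA in these results was not tested.

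Among 4 tested genes of the group of *Fbxo2* and *Fbxo6*, *Fbxo44* was higher, which is 25% beside 26.4% of all genes. Whether the product of *Fbxo44* binds glycoproteins was not examined. *Fbxo44* lies beside *Fbxo6* and *Fbxo2* on chromosome 4. *Fbxo44* (ENSMUSG00000029001.15; chr4:148152800-148160482, minus strand) had 12.6, 7.18, 7.95 and 8.99 CPM in *Nae1* cKO nerves, against 5.55, 3.69, 5.16 and 5.72 CPM in WT nerves. The groups did not overlap, with a log2 fold change of 0.87 (SE 0.2, adjusted p = 0.00768). Without K1 and L4 it was 0.96 and did not pass (adjusted p = 0.0510). K2 was the highest nerve, and without it the value was 0.67 (adjusted p = 0.00997).

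Its neighbour *Fbxo6*, a receptor for misfolded glycoproteins, had 13.6, 8.29, 11.7 and 9.48 CPM in *Nae1* cKO nerves, against 13.5, 10.6, 12.1 and 12.2 CPM in WT nerves. The groups overlapped (−0.17, adjusted p = 0.481). The log2 ratio of *Fbxo44* to *Fbxo6* averaged −0.24 ± 0.22 in *Nae1* cKO nerves and −1.28 ± 0.18 in WT nerves (SD, n = 4 each), a difference of 1.04 (p = 0.0286 by a two-sided exact permutation test, which cannot give less with 4 against 4, and adjusted p = 0.0857 over 6 pairs of relatives). *Fbxo44* had already passed in these nerves, so the ratio restates that result and is no separate support.

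**Figure D4:**
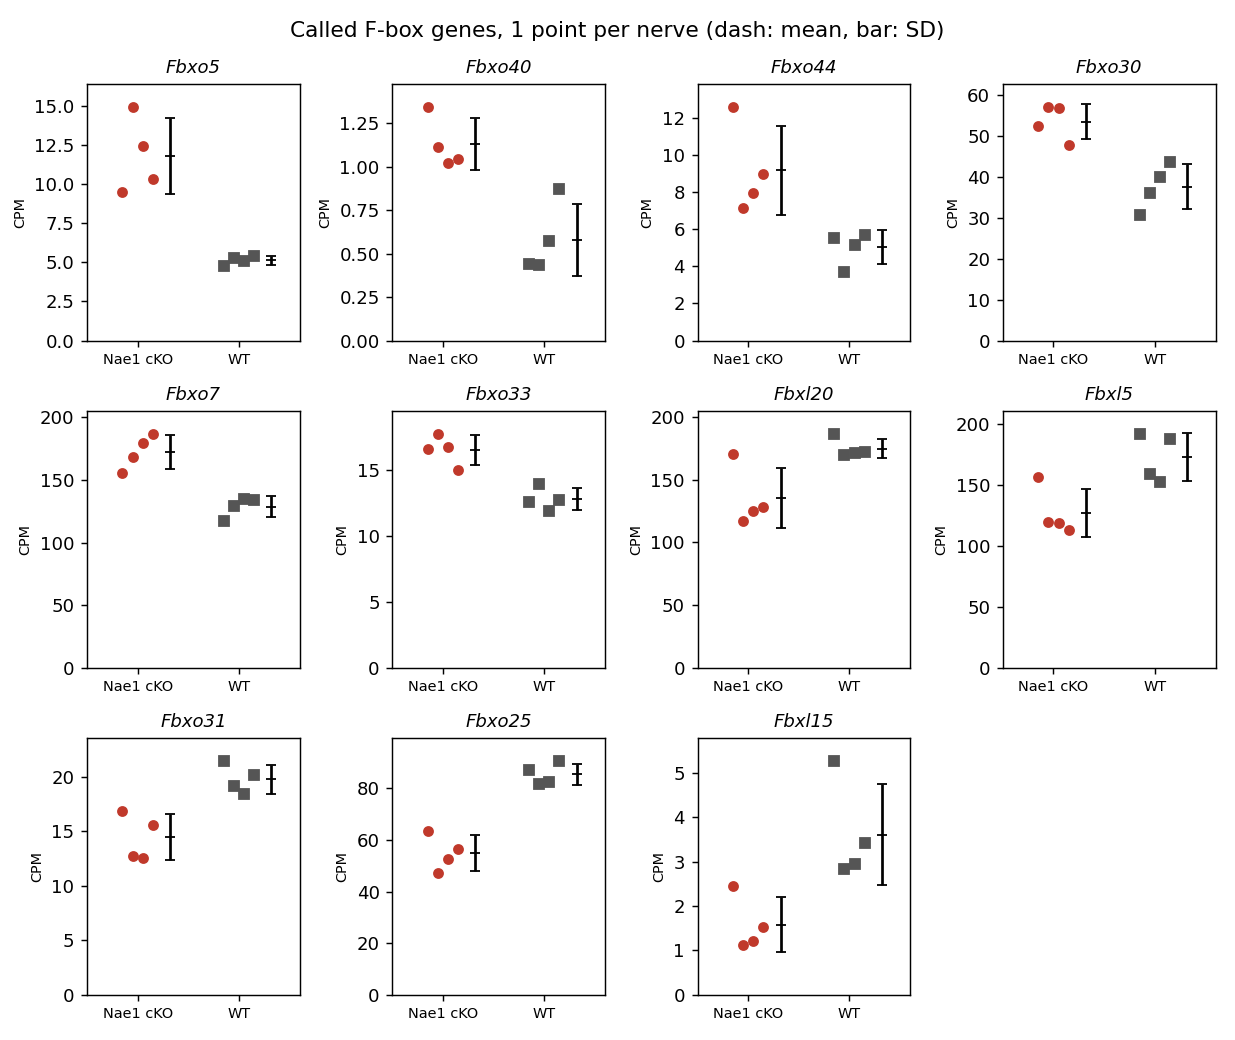
CPM of the 11 F-box genes that passed, 1 point per nerve with 4 *Nae1* cKO nerves (red circles) left of 4 WT nerves (grey squares), and the mean and SD beside each group, on axes that start at 0. The groups stand apart for all but *Fbxl5* and *Fbxl20*, where K2 (156 and 170 CPM) reaches the WT range.

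The remaining genes that passed belong to no group above. *Fbxl15* (ENSMUSG00000025226.11; chr19:46328184-46330446, plus strand), a receptor for the BMP pathway ligase SMURF1, had 2.46, 1.11, 1.22 and 1.53 CPM in *Nae1* cKO nerves, against 5.26, 2.82, 2.94 and 3.42 CPM in WT nerves. Each *Nae1* cKO nerve lay below each WT nerve, with a log2 fold change of −1.19 (SE 0.3, adjusted p = 0.0103). Without K1 and L4 it was −0.98 (adjusted p = 0.0900), and without K1 alone the change was under 2-fold (−0.95, adjusted p = 0.0381). Its 3′ end overlaps *Cuedc2* on the other strand by 635 bases, and *Cuedc2* (377 CPM over all nerves) was also lower, by −0.97 on the log2 scale (adjusted p = 1.0e-05). How the counting used strand is not given, so reads of *Fbxl15* and *Cuedc2* may not be separated.

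*Fbxl20*, which encodes the synaptic F-box protein SCRAPPER, had 170, 117, 125 and 129 CPM in *Nae1* cKO nerves, against 186, 170, 171 and 172 CPM in WT nerves. K2 reached the WT range, with a log2 fold change of −0.37 (SE 0.11, adjusted p = 0.0232). It did not pass without K1, L1, L5 or L8 (−0.31 to −0.35, adjusted p of 0.0653 to 0.0731), nor without K1 and L4 (adjusted p = 0.151). With library totals it was −0.22 (adjusted p = 0.0759) and on log2(TPM + 1) −0.21 (adjusted p = 0.696). *Fbxo33*, a receptor for the RNA-binding protein YBX1, had 16.6, 17.7, 16.7 and 14.98 CPM in *Nae1* cKO nerves, against 12.6, 13.9, 11.9 and 12.7 CPM in WT nerves. The groups did not overlap (0.37, SE 0.11, adjusted p = 0.0215), and the gene did not pass without K1, L1, L4 or L5 (0.33 to 0.36, adjusted p of 0.0565 to 0.0608), nor without K1 and L4 (adjusted p = 0.186), with no filter on low counts (0.36, adjusted p = 0.0586) or on log2(TPM + 1) (0.39, adjusted p = 0.336).

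*Fbxo38*, which encodes a coactivator of KLF7 and a receptor for PD-1, had 88.5, 77.3, 77.8 and 77.3 CPM in *Nae1* cKO nerves, against 75.4, 74.0, 68.1 and 75.2 CPM in WT nerves. All *Nae1* cKO nerves lay above all WT nerves by a small margin, and the log2 fold change of 0.13 (95% interval −0.03 to 0.30, adjusted p = 0.229) did not pass. With library totals, *Fbxo38* (0.29, adjusted p = 0.0123) and *Fbxw7* (0.33, adjusted p = 0.0369) passed. Of the 44 genes that did not pass, 42 had an estimated difference under 0.5 on the log2 scale. The 95% intervals of some of these reached past 0.5, so a small estimate does not show that a level was unchanged.

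Levels of close relatives were also compared within nerves, over 6 pairs. The log2 ratio of *Fbxo25* to *Fbxo32* averaged 1.47 ± 0.30 in *Nae1* cKO nerves and 2.23 ± 0.08 in WT nerves (SD, n = 4 each), a difference of −0.76 (two-sided exact permutation test, p = 0.0286, adjusted p = 0.0857). Of the others, *Fbxo30* and *Fbxo40*, *Fbxl20* and *Fbxl2*, and *Fbxw11* and *Btrc* had differences between −0.50 and 0.12 with adjusted p of 0.171 or more. No pair passed after adjustment over the 6. *Fbxo25* had already passed in these nerves, so its ratio is likewise no separate support.

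The family as a whole was at 522 ± 110 TPM in *Nae1* cKO nerves and 490 ± 47.4 TPM in WT nerves (summed TPM of 79 genes, SD, n = 4 each), a difference that was within the spread (two-sided exact permutation test, p = 0.543). By nerve the sums were 376, 641, 537 and 534 TPM in *Nae1* cKO and 432, 471, 521 and 535 TPM in WT. K2 was lowest of all 8 and L1 highest. In summed CPM the order of the means turned, with 1813 in *Nae1* cKO and 1898 in WT nerves (p = 0.171, same exact test).

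RSEM's abundance-weighted transcript length, a readout that moves when transcripts of unlike length change share, was tested for 45 F-box genes. With limma, 0 of 45 passed, as did 0 of 11913 genes, and at an unadjusted p under 0.05 there were 5 of 45 (11.1%) beside 6.79% of all genes. The smallest adjusted p among F-box genes was 0.431.

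Of 11 core cullin 1 ligase genes, 1 was higher (*Cks1b*) and 1 lower (*Rbx1*), beside 14.1% and 12.3% of all genes. *Rbx1*, the RING subunit (−0.33, adjusted p = 0.0153), did not pass without K1 (−0.29, adjusted p = 0.0542). *Cul1*, the scaffold, had 96.6, 100, 98.1 and 90.3 CPM in *Nae1* cKO nerves, against 83.3, 88.4, 81.5 and 87.0 CPM in WT nerves (0.18, adjusted p = 0.0723), and *Skp1a*, the adaptor, had −0.04 (adjusted p = 0.771) but has close copies in the genome and is uncertain. Of 6 F-box genes outside the symbol rule, *Skp2* and *Kdm2b* (0.34, adjusted p = 0.0494) were higher and none lower, beside 14.1% of all genes higher. *Kdm2b* did not pass without K1, L1, L3, L8 or L9 (0.26 to 0.34, adjusted p of 0.0826 to 0.152), and *Skp2* did not pass without K1 and L4 (0.65, adjusted p = 0.1098). Of 13 genes of the neddylation cycle, 4 were lower and none higher, beside 12.3% of all genes lower. *Nae1* (−0.68), which is among these, is the gene removed by design, so its fall was set in advance. The others were *Dcun1d4* (−0.60, adjusted p = 0.00171) and *Dcun1d2* (−0.41, adjusted p = 0.0115), which encode helpers of NEDD8 transfer, and *Uba3* (−0.25, adjusted p = 0.0299). None of the 4 passed with limma on log2(TPM + 1), among them *Nae1* (−0.44, adjusted p = 0.266) and *Dcun1d4* (−0.46, adjusted p = 0.279). *Uba3* did not pass without L3, L5, L8 or L9 (−0.20 to −0.25, adjusted p of 0.0657 to 0.0797). With library totals, *Uba3* (−0.09, adjusted p = 0.493), *Dcun1d2* (−0.25, adjusted p = 0.143) and *Rbx1* (−0.18, adjusted p = 0.145) did not pass, and *Dcun1d2* did not pass without K1 and L4 (−0.36, adjusted p = 0.125). These 3 lists gave 8 genes that passed, and 4 without K1 and L4, with *Nae1* counted in both.

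Of 21 tested mRNAs of well-known F-box substrates, 7 were higher and 2 lower, beside 14.1% and 12.3% of all genes. Without K1 and L4, 1 was higher (*Top2a*) and 2 were lower (*Cdkn1b*, *Srebf2*), beside 13.5% of all genes called in that fit. *Cdkn1b*, which encodes the SKP2 substrate p27, had 199, 184, 177 and 179 CPM in *Nae1* cKO nerves, against 282, 269, 269 and 329 CPM in WT nerves (−0.64, adjusted p = 0.000147). *Srebf2*, which encodes a sterol regulator turned over through FBXW7, had 54.5, 47.5, 53.7 and 51.5 CPM in *Nae1* cKO nerves, against 91.8, 86.6, 119 and 73.1 CPM in WT nerves (−0.84, adjusted p = 0.000499). Neither overlapped between groups, and neither passed on log2(TPM + 1) (adjusted p = 0.216 for *Cdkn1b* and 0.0798 for *Srebf2*). *Top2a* was higher by 1.22 (adjusted p = 0.000806) and is also one of the 12 proliferation markers.

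Markers of other cells moved beside these genes. Of 6 macrophage markers 4 were higher and 0 lower, with summed CPM of 263 to 333 in *Nae1* cKO and 152 to 166 in WT nerves. Of 5 myelin genes all 5 were lower, at 13911 to 17737 CPM in *Nae1* cKO and 37148 to 58825 CPM in WT nerves. Of 4 fibroblast markers 3 were higher, and of 3 endothelial markers 2 were lower. The 6 Schwann lineage markers had 1 higher and 2 lower. Of 4 neuronal markers 2 were tested and both were higher, *Tubb3* (means of 12.6 CPM in *Nae1* cKO and 5.60 CPM in WT nerves) and *Snap25* (2.35 and 0.90 CPM). The other 2 were not tested. *Rbfox3* had 0 CPM in every nerve, and *Syt1* averaged 0.208 CPM in *Nae1* cKO and 0.203 CPM in WT nerves. The sum of the 4, mostly *Tubb3*, was 13.3 to 17.0 CPM in *Nae1* cKO and 5.58 to 9.22 CPM in WT nerves. The part of these cell types in the F-box results was not tested.

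The nerve names carry the letter K (1 nerve per group) or L (3 per group), whose meaning the labels do not give. The 11 genes that passed had the same direction in both sets of nerves, which is a description, since they were called on these nerves.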

How the data were processed

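For each of 8 nerves the authors deposited an RSEM table with expected counts (estimated and unscaled), TPM (which the authors scaled so that each library sums to 1000000) and an abundance-weighted transcript length in bases. FastQC 0.11.5, the aligner STAR, RSEM and the build GRCm38 stand in the submitters' processing notes, whereas the study's methods list TopHat, mm10 and Cuffdiff. No source used here gives the strand setting of counting or the annotation release. Columns of FPKM were not used.

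Expected counts were rounded, filtered with filterByExpr, scaled by TMM and tested with edgeR 4.0.16 (R 4.3.3; quasi-likelihood, robust, Benjamini-Hochberg over 17090 genes; common coefficient of variation 0.158), without covariates. Intervals are 95%. Lengths were tested with limma 3.58.1. Sums and ratios used exact permutation tests. Alternatives used DESeq2 1.42.0, limma-voom, TPM, other scalings and filters, the letter of the sample name, and left-out nerves. Coordinates are from GENCODE vM21 (GRCm38).

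Named were *Nae1*, genes that passed, those among the 5 highest, *Fbxo38*, *Fbxw7* and *Fbxo7*, up to 4 per partner list, and genes with 1 nerve far from the rest. Some genes outside this rule, such as relatives of these and genes of near-zero level, were named after their values were seen. Members and lists were chosen with earlier results of these data known. Values of 1 F-box gene are not reported here.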

Additional observations from a re-analysis of the deposited data

Results flagged for a closer look

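In 10 of 112 groups of 4 nerves (55 genes and their family's summed TPM, in both genotypes), 1 nerve lay far from the other 3 of its group by Dixon's criterion, where chance gives about 1 in 20 groups. K2 was that nerve in 4 of the 10. In K2, *Fbxo32* had 30.5 CPM (others 16.7 to 17.3), *Fbxl5* 156 CPM (others 113 to 119), *Fbxl4* 31.8 CPM (others 21.7 to 23.4) and *Fbxo38* 88.5 CPM (others 77.3 to 77.8). In L1, *Fbxo4* had 7.87 CPM (others 6.34 to 6.57) and *Fbxo27* 1.46 CPM (others 2.61 to 2.72). In L5, *Fbxo28* had 46.6 CPM (others 49.8 to 50.3). Among WT nerves, *Fbxl20* had 186 CPM in K1 (others 170 to 172), *Fbxw4* 10.2 CPM in K1 (others 9.05 to 9.22) and *Fbxl2* 17.2 CPM in L3 (others 20.2 to 20.7). Of these genes, *Fbxl5* and *Fbxl20* passed the test.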

How the results depend on the processing

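None of the 11 genes that passed changed sign in the alternatives run for it, and 1, *Fbxo5*, passed in all 19. The count of 11 (6 higher, 5 lower) was 4 (3 higher, 1 lower) on both log2(TPM + 1) and log2(TPM + 0.1). The shares of all genes called in those fits were 10.1% and 9.71%. Without K1 and L4 the count was 3 (2 higher, 1 lower), beside 13.5% of all genes. With library totals 8 were higher and 3 lower, beside 30.0% of all genes (median of all genes 0.16 on the log2 scale). With the letter of the sample name as a term 6 were higher and 8 lower, beside 30.8% of all genes. Leaving out single nerves gave 7 (without L5) to 14 (without K2) genes, and 3 to 8 lower. The share of all genes called was 20.6% without L5 and 30.1% without K2. Changes over 2-fold (2) became 4 with library totals, 1 on log2(TPM + 1), 1 without K1 and L4, and 1 to 3 without single nerves. Partner genes that passed (8, *Nae1* included, in the lists of cullin 1 core, other F-box and neddylation genes) were 1 on both TPM scales, 4 without K1 and L4, and 6 to 12 without single nerves. *Fbxo18* turned to 0.14 (library totals), 0.28 and 0.29 (TPM) and to 0.0007 to 0.0328 without L1, L3, L8 or L9, with a range of −0.047 (without K2) to 0.0328. The difference of summed levels was −84.8 in CPM, and it ran from −7.96 TPM (without L1) to 80.6 TPM (without K2). The cause of these shifts was not tested, except that leaving out nerves leaves fewer samples. No paired analysis was possible because the groups share no replicate number. Low-count genes are limited by depth.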
